A study of Mus musculus with 12 samples.

Results

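The genes described here are the ligands of the epidermal growth factor (EGF) receptor, 3 receptors of the ErbB family and the protease that releases the ligands, in cultured mouse lung cells exposed to a cockroach allergen. They are 10 of the 55450 genes of the deposited table, and they were chosen by name: the ligands Areg, Ereg, Hbegf, Tgfa, Btc and Epgn, the receptors Egfr, Erbb2 and Erbb3, and the sheddase Adam17. The choice used no threshold on a measured value, and all 10 passed the filter on low counts. The cells, isolated by removing leukocytes, red cells and Sca-1+ cells with antibodies, were type II alveolar epithelial (AT2) cells, the surfactant-making and progenitor cells of the alveolus, from mice of 6 to 8 weeks on a C57BL/6 background. AhRf/f mice (AhRfl/fl in the labels) carry floxed alleles of Ahr, whose product AhR is a transcription factor switched on by small aromatic ligands. In Sftpc-Cre;AhRf/f mice (KO in the genotype label) Cre is made under promoter and enhancer elements of the surfactant gene Sftpc. Cells of each genotype were kept on collagen I and received PBS or 50 µg/ml of cockroach extract (CRE) for 24 h, and 3 RNA-seq libraries represent each of the 4 groups. AhRf/f mice carry no Cre, so the presence of Cre and the deletion cannot be told apart. The sources used here do not say which libraries came from separate mice, so p-values measure the spread between libraries only.

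EGF family ligands are made as membrane proteins whose extracellular part is cut free, largely by ADAM17, and then binds EGFR on the same or a neighbouring cell. EGFR pairs with ERBB2, which binds no ligand of its own, or with ERBB3, whose kinase is weak and which relays signals mainly to PI3K. The activated receptors drive the RAS, RAF, MEK and ERK kinases, whose target genes include inhibitors that shut the pathway down. In the lung this pathway is known for epithelial repair, and amphiregulin is also known as a product of innate lymphoid cells and other leukocytes in allergic inflammation.

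Areg, Btc, Ereg and Epgn lie next to each other on chromosome 5 of GRCm38, from Epgn at 91027464 through Ereg (91074622 to 91093646) and Areg (91139599 to 91148432) to the end of Btc at 91402994. Epgn, Ereg and Areg are on the plus strand and Btc is on the minus strand. Of the other members, Tgfa lies on chromosome 6 (86195223 to 86275719), Egfr (16752203 to 16918158) and Erbb2 (98412470 to 98437716) on chromosome 11, Erbb3 on chromosome 10 (128567523 to 128589652) and Adam17 on chromosome 12 (21323509 to 21373632). The upstream sequences of 3 members are shown, since Areg and Btc were lower and Adam17 higher with CRE in every pair of libraries of the same number, and since AhR binds DNA with its partner ARNT at a GCGTG core. Each is the 250 bases before the RefSeq start (GRCm38.p6), printed in the direction of the gene. Capitals mark matches on either strand to GCGTG or to TGACGTCA, the full palindromic cAMP response element; TGANTCA, the AP-1 motif, was also searched.
Areg, chr5:91139349-91139598, plus strand: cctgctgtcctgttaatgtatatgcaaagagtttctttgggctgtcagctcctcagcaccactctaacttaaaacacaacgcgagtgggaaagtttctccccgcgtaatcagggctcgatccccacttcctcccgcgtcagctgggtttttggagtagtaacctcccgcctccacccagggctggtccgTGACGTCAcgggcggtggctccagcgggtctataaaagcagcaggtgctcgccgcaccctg
Btc, chr5:91402995-91403244, minus strand: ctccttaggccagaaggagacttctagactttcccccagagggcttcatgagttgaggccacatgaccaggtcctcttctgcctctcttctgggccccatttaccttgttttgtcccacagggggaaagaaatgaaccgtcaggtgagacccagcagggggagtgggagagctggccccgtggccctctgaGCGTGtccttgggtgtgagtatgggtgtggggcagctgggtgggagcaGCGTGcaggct
Adam17, chr12:21373633-21373882, minus strand: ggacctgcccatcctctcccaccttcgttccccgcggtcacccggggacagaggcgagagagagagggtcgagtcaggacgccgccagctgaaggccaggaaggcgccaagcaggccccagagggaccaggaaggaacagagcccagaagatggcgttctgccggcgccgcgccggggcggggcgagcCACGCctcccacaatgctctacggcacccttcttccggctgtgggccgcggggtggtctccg
The sequence of Areg held TGACGTCA once, at -61 to -54 from the start, and no GCGTG, whereas 1.62% and 28.2% of 27025 RefSeq promoters of the same length held these motifs. That of Btc held GCGTG at -59 to -55 and at -11 to -7. That of Adam17 held it once, on the opposite strand at -62 to -58. No match to TGANTCA was found in these windows, against 6.87% of all promoters, and none of the matches overlapped another. Of the 10 members, 7 had an entry; Ereg, Hbegf and Erbb3 had none. Of the other 4 with an entry, Tgfa held 1 GCGTG and Epgn, Egfr and Erbb2 held none of the 3 motifs. The bases just after the RefSeq start of Tgfa were found in no GENCODE transcript of the gene, unlike those of the other 6.

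The total count per library lay between 68878065 and 80935797, where 3 counts, the most that a count of 0 allows, correspond to 0.0371 to 0.0436 CPM; this limit covers counting error only. Counts were scaled to CPM, that is, divided by the TMM-adjusted library total and rescaled to a common size. Of all genes 20612 were tested, and levels between genes are compared in the deposited FPKM, which is per length. The floxed gene itself did not check the labels: Ahr was at 42.9 to 56.2 CPM in AhRf/f cells and at 37.7 to 51.5 CPM in Sftpc-Cre;AhRf/f cells. Its log2 difference between the genotypes was -0.07 (SE 0.08, adjusted p = 0.884 in edgeR), and whole-gene counts do not tell whether an excised exon is missing. The paper itself reports the loss of AhR by co-staining of lung tissue and by RT-PCR of isolated AT2 cells. It also names Cyp1b1 as lower in Sftpc-Cre;AhRf/f cells under both treatments in its RNA-seq. All 10 AT2 markers were detected, at a summed 7337 to 14057 CPM. Markers of other cell types were present too: those of club cells, led by secretoglobins, summed to 3982 to 8106 CPM. The 7 leukocyte markers summed to 210.4 to 304.8 CPM in the libraries numbered 1 and to 11.9 to 73.9 CPM in the other 8. In bulk RNA fewer cells of a type and less RNA per cell cannot be told apart.

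Areg, which encodes amphiregulin, was the most abundant member, and Epgn, which encodes epigen, the least abundant. The median of Areg over the 12 libraries was 79.1 FPKM (range 49.9 to 136.8), and its mean lay above that of 97.2% of the tested genes. Erbb3 followed at a median of 37.9 FPKM (35.8 to 48.0) and Hbegf, the gene of heparin-binding EGF, at 24.3 FPKM (21.5 to 33.3). Each of these 3 lay above the next in 12 of 12 libraries. Erbb2 at 13.2 FPKM and Adam17 at 11.5 FPKM came next, and Erbb2 was the higher in 9 of 12 libraries, so their order is not separated by the spread. Tgfa (transforming growth factor alpha) stood at 8.13 FPKM and Egfr at 4.16 FPKM. Tgfa lay above Egfr in 10 of 12 libraries. Ereg (epiregulin) at 2.74 FPKM and Btc (betacellulin) at 2.48 FPKM overlapped, and Ereg also overlapped Egfr. Epgn was at 0.612 FPKM and below Btc in 12 of 12 libraries. Egfr, the only one of the 3 receptors that binds these ligands and has a fully active kinase, thus had the lowest receptor level.

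**Figure D1:**
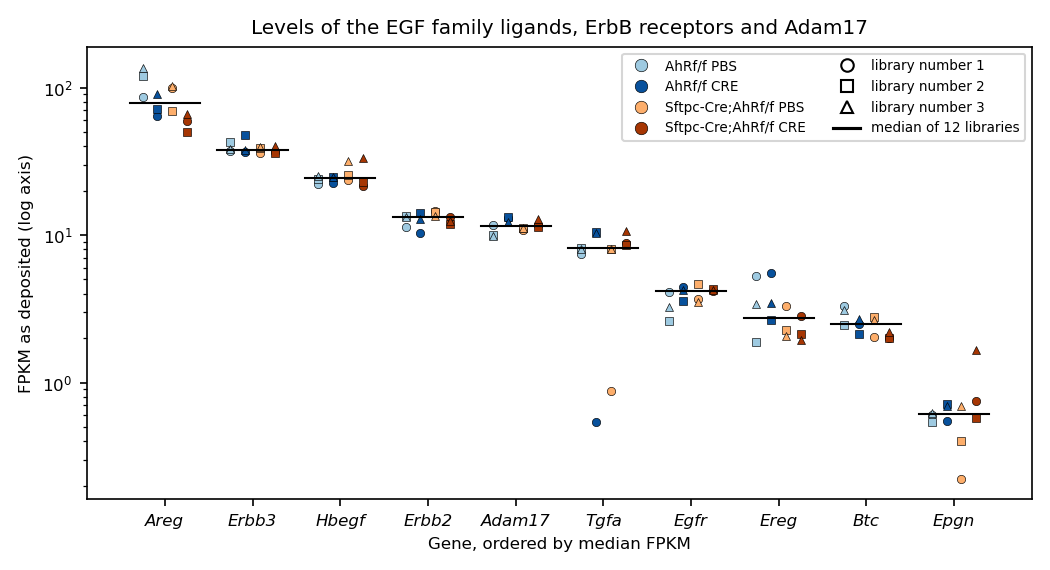
Deposited FPKM (log axis) of the 10 genes in each of the 12 libraries; colours are the groups, shapes the library numbers and lines the medians. Areg lies highest in every library, and 2 Tgfa points, at 0.536 and 0.871 FPKM, lie far below the other 10.

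The first question was whether the members differ between cells with CRE and with PBS. Areg was lower with CRE by about the same amount in both genotypes, and Adam17 was slightly higher. The receptor Erbb3 and the ligand Hbegf lay close to their PBS levels. Erbb2 was slightly lower in Sftpc-Cre;AhRf/f cells, but no fit or rule called it. Areg was not called when the libraries of a group were compared unpaired in edgeR or limma-trend with adjusted p, and was called when libraries of the same number were compared as pairs; DESeq2 called it only in the mean of both genotypes. The following 2 call rules were used. The first took genes with a Benjamini-Hochberg adjusted p below 0.05 in the quasi-likelihood test of edgeR, and the second an unadjusted p below 0.05 in limma-trend with an absolute log2 fold change above 0.5.

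By the first rule 0 of the 10 members were called in AhRf/f cells, in Sftpc-Cre;AhRf/f cells or in the mean of both genotypes, where 0.233%, 0.262% and 1.1% of all genes were called. An unadjusted p below 0.05 in edgeR was found for 2 members in each, and for 9.36%, 6.48% and 11.1% of all genes: Areg in all 3 comparisons, with Adam17 in AhRf/f cells and in the mean, and Epgn in Sftpc-Cre;AhRf/f cells. DESeq2 called 0, 0 and 2 members, beside 1.99%, 1.24% and 3.6% of all genes. By the second rule 1, 2 and 1 members were called, beside 4.11%, 3.38% and 4.02% of all genes: Areg in each of these, and Epgn in Sftpc-Cre;AhRf/f cells. PBS and CRE libraries of the same number deviated together from their group means, so edgeR was also fitted with a block for each genotype and number. The paired fit called 1, 1 and 2 members beside 3.63%, 2.13% and 6.59% of all genes, namely Areg in each and Adam17 in the mean. The median log2 fold change of the 10 members was 0.02 in the mean of both genotypes, where that of all genes was -0.0021.

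**Figure D2:**
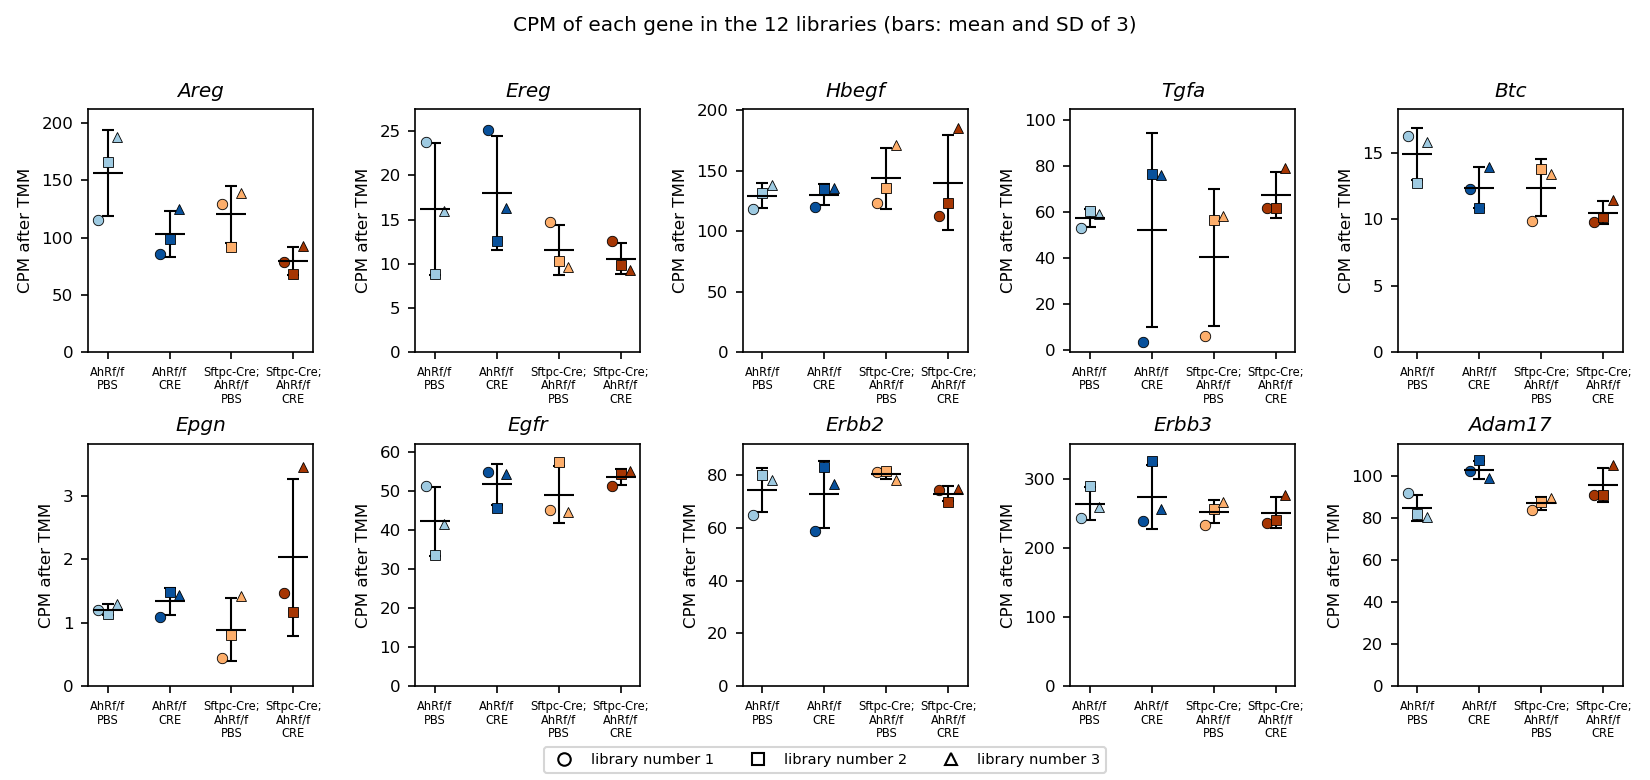
CPM after TMM of each of the 10 genes by group, with a point for each library (shape: library number) and bars for the mean and SD of 3. Areg stands lower in both CRE groups, and Tgfa has 1 low library in each of 2 groups.

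In AhRf/f cells Areg was at 115, 166 and 188 CPM with PBS and at 85.9, 98.8 and 125 CPM with CRE in libraries 1, 2 and 3. The Sftpc-Cre;AhRf/f values were 129.6, 92.0 and 139 CPM with PBS and 78.6, 67.7 and 92.2 CPM with CRE. The groups overlap slightly in each genotype, but every CRE library was lower than the PBS library of its number. The mean in AhRf/f cells was 156 ± 37.4 CPM with PBS and 103 ± 19.7 CPM with CRE (SD, n = 3), which is -0.60 on the log2 scale (SE 0.22, adjusted p = 0.401 in edgeR). In Sftpc-Cre;AhRf/f cells the means were 120.3 ± 25.0 CPM and 79.5 ± 12.3 CPM, also a difference of -0.60 (SE 0.22, adjusted p = 0.633 in edgeR), or 1.51-fold. Averaged over the genotypes it was -0.60 (SE 0.15, adjusted p = 0.115 in edgeR). Library pairs narrowed the error: with the block, the paired edgeR fit gave -0.59 (SE 0.08) in each genotype, with adjusted p = 0.0138 in AhRf/f and 0.0147 in Sftpc-Cre;AhRf/f cells. In the mean of both genotypes the paired edgeR fit gave an SE of 0.05 and an adjusted p = 0.0018, and DESeq2 without pairs an adjusted p = 0.0046. Over all unpaired and paired alternatives of that mean, the adjusted p ranged from 0.0018 to 0.339 and the log2 fold change from -0.69 to -0.51.

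Markers of alveolar type I cells, into which AT2 cells differentiate, were lower in the same comparison. The 8 type I markers summed to 2694 to 3465 CPM with PBS and 1898 to 2402 CPM with CRE in AhRf/f cells. In Sftpc-Cre;AhRf/f cells they summed to 2898 to 3890 CPM with PBS and 2211 to 2813 CPM with CRE. All 8 were lower in the mean of both genotypes and 3 were called by edgeR, with a median log2 fold change of -0.51. The 8 alveolar macrophage markers had a median of -0.68 and the 4 club cell markers one of -0.13, with 0 called in either list. The innate lymphoid and mast cell list, cells known to make amphiregulin, had a median of 0.02 with 0 of 6 tested markers called. Its 7 markers summed to 40.5 to 107.9 CPM, and only the mast cell marker Mcpt4 was at 0 in all 12 libraries. In the libraries numbered 1 they summed to 83.7 to 107.9 CPM, beside 210.4 to 304.8 CPM of leukocyte markers. In those numbered 3 the sums were 40.5 to 59.9 CPM and 11.9 to 73.9 CPM. Which cells made this RNA was not tested, so the sums do not show that innate lymphoid or mast cells were present. The part of these cell types in the Areg difference was not tested.

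The other ligands of the cluster on chromosome 5 differed in direction, and none was called by edgeR. Btc was at 16.3, 12.7 and 15.8 CPM with PBS and at 12.3, 10.9 and 14.0 CPM with CRE in AhRf/f cells. Its values in Sftpc-Cre;AhRf/f cells were 9.91, 13.8 and 13.4 CPM with PBS and 9.82, 10.2 and 11.5 CPM with CRE. It was lower in 6 of 6 pairs, by 0.01 to 0.44 on the log2 scale, and its groups overlapped. Its log2 fold change in the mean was -0.26 (SE 0.12, adjusted p = 0.453 in edgeR and 0.114 in the paired fit). Ereg had a log2 fold change of 0.01 in the mean (SE 0.25, edgeR 95% interval -0.54 to 0.56), with 3 pairs higher and 3 lower. Epgn, at 86 to 263 counts with CRE and 35 to 105 with PBS, had a log2 fold change of 0.15 in AhRf/f and 1.19 (SE 0.47, adjusted p = 0.696 in edgeR) in Sftpc-Cre;AhRf/f cells. The second rule called it in the latter, where the values were 0.444, 0.803 and 1.42 CPM with PBS and 1.47, 1.18 and 3.45 CPM with CRE. Without library 3 of the Sftpc-Cre;AhRf/f cells with CRE, the log2 fold change was 0.57 in edgeR (unadjusted p = 0.208).

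Hbegf, which is also the receptor for diphtheria toxin, was at 118 to 138 CPM with PBS and 120.0 to 136 CPM with CRE in AhRf/f cells. The Sftpc-Cre;AhRf/f values were 123 to 172 CPM with PBS and 112 to 185 CPM with CRE. These ranges overlap almost wholly, and the edgeR 95% interval of the mean log2 fold change was -0.29 to 0.27.

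Tgfa could not be read as a group mean. It was at 53.2 to 79.2 CPM in 10 libraries, but at 3.82 CPM (307 counts) in library 1 of the AhRf/f cells with CRE and at 6.09 CPM (480 counts) in library 1 of the Sftpc-Cre;AhRf/f cells with PBS. With all libraries its log2 fold change in AhRf/f cells was -0.14 (SE 0.89), and without these 2 it was 0.41 (adjusted p = 0.354 in edgeR). Outside the 2 pairs that hold them, Tgfa was higher with CRE in 4 of 4 pairs, by 0.12 to 0.43 on the log2 scale. Such a pattern was rare: of 9899 genes at 10 CPM or more, 32 had 1 to 3 libraries over 5-fold below the median with the others within 2-fold of it. No library held more than 7 of these drops, and the feedback inhibitor Spry1, at 15 counts in library 1 of the AhRf/f cells with PBS, was another such gene. Their cause was not tested.

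**Figure D3:**
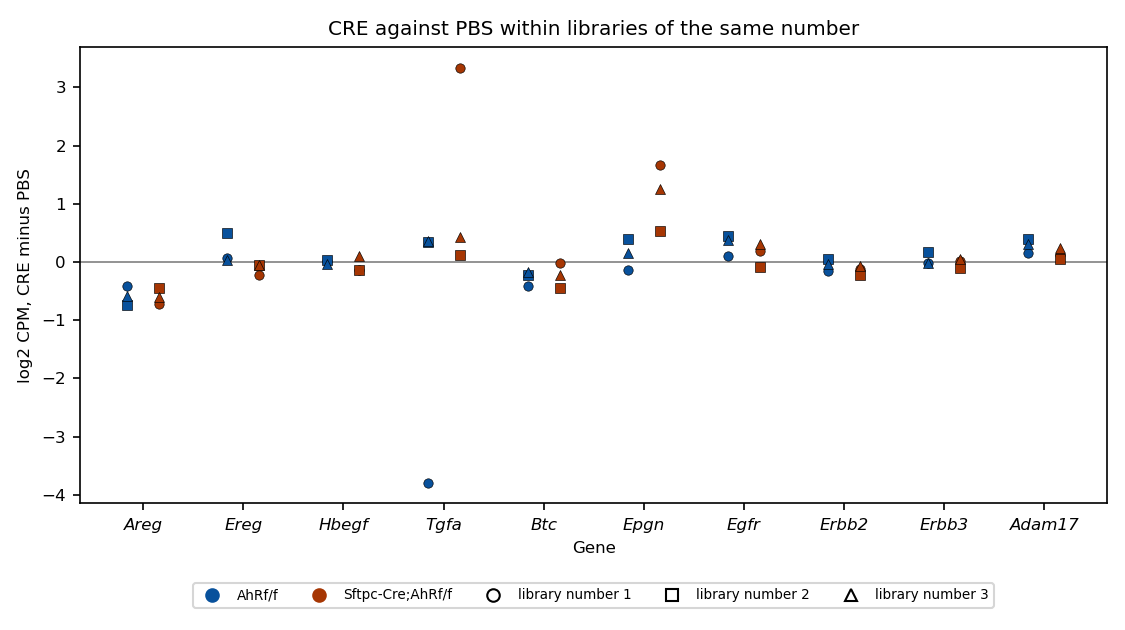
Difference in log2 CPM between the CRE and PBS library of the same number for each gene; colours are genotypes and shapes library numbers. Areg and Btc lie below 0 in 6 of 6 pairs and Adam17 above it in 6 of 6.

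Among the receptors, Egfr was at 51.4, 33.7 and 41.7 CPM with PBS and at 55.0, 45.8 and 54.5 CPM with CRE in AhRf/f cells. Its values in Sftpc-Cre;AhRf/f cells were 45.1, 57.5 and 44.7 CPM with PBS and 51.3, 54.5 and 55.1 CPM with CRE. It was higher in 5 of 6 pairs, with overlapping groups. The log2 fold change in the mean was 0.21 (SE 0.11, adjusted p = 0.531 in edgeR and 0.117 in the paired fit). For Erbb2 the mean was -0.09 (95% interval -0.27 to 0.10) and for Erbb3 0.02 (95% interval -0.16 to 0.21), both in edgeR. Erbb2 was lower in 5 of 6 pairs. In Sftpc-Cre;AhRf/f cells Erbb2 was at 81.1, 81.6 and 78.2 CPM with PBS and at 74.3, 69.6 and 74.7 CPM with CRE, without overlap. Its AhRf/f groups overlapped, at 64.9 to 80.0 CPM with PBS and 58.6 to 83.0 CPM with CRE. No fit or rule called Erbb2 in either genotype, and the share of all genes without overlap was not counted. Erbb3 stayed between 235 and 327 CPM in all 12 libraries.

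Adam17 encodes the main sheddase of Areg, Ereg, Epgn, Hbegf and Tgfa. It was at 91.7, 81.7 and 80.3 CPM with PBS and at 102, 107 and 99.1 CPM with CRE in AhRf/f cells. The Sftpc-Cre;AhRf/f values were 83.6, 87.7 and 89.5 CPM with PBS and 91.0, 90.9 and 105 CPM with CRE. All CRE libraries lay above all PBS libraries in each genotype, by the narrowest margin in Sftpc-Cre;AhRf/f cells, and the log2 fold changes were 0.28 (SE 0.08) and 0.14 (SE 0.08). In the mean it was 0.21 (SE 0.05), with an adjusted p = 0.116 in edgeR, 0.0344 in the paired edgeR fit and 0.0316 in DESeq2. Over all alternatives of the mean the adjusted p ranged from 0.0316 to 0.324. All 6 pairs of Areg, of Btc and of Adam17 lay in 1 direction, as did those of 14.4% of all tested genes.

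The share of Areg in the ligand RNA, compared per length, was lower with CRE in 6 of 6 pairs, and its CRE and PBS libraries did not overlap within a genotype. Areg made up 74.2% ± 4.6 of the summed FPKM of the 6 ligands in AhRf/f cells with PBS and 66.4% ± 2.3 with CRE (SD, n = 3). In Sftpc-Cre;AhRf/f cells it made up 70.0% ± 6.5 with PBS and 59.2% ± 2.9 with CRE. The summed FPKM of the other 5 ligands was 38.8 ± 1.8 and 38.1 ± 5.4 in AhRf/f cells and 38.1 ± 7.6 and 40.5 ± 8.0 in Sftpc-Cre;AhRf/f cells, within the spread. The summed FPKM of the 3 receptors lay between 51.2 and 65.6 in all libraries. The low Tgfa values enter 2 of these sums.

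The second question was whether the members differ between the genotypes. By edgeR 0 of 10 members were called with PBS, with CRE or in the mean of both treatments, beside 0.15%, 0.17% and 0.631% of all genes. An unadjusted p below 0.05 in edgeR was found for 0, 0 and 2 members, Areg and Ereg in the mean, and for 8.37%, 5.95% and 9.93% of all genes. DESeq2 called 0 members in each, beside 1.18%, 0.847% and 2.54% of all genes. By the second rule 0, 0 and 1 members were called, beside 4.1%, 3.42% and 4.11% of all genes, and the member called was Ereg. Areg was lower in Sftpc-Cre;AhRf/f cells by 0.38 on the log2 scale with PBS and 0.38 with CRE, and the mean was -0.38 (SE 0.15, adjusted p = 0.429 in edgeR). Its groups overlapped under both treatments. Of the 10 AT2 markers 9 were lower in these cells too (median -0.17, 0 called), and their part in the Areg difference was not tested.

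Ereg was at 23.8, 8.86 and 16.01 CPM with PBS and at 25.1, 12.5 and 16.3 CPM with CRE in AhRf/f cells. Its values in Sftpc-Cre;AhRf/f cells were 14.7, 10.3 and 9.62 CPM with PBS and 12.6, 9.88 and 9.28 CPM with CRE. Library 1 was the highest of its group in all 4 groups, and the libraries numbered 1 also held the most leukocyte and alveolar macrophage markers. The part of those cells in Ereg was not tested. The log2 difference in the mean was -0.63 (SE 0.25, adjusted p = 0.415 in edgeR). Btc was at -0.25 (SE 0.12, adjusted p = 0.510) and Egfr at 0.13 (SE 0.11, adjusted p = 0.780), again in edgeR. The other 6 members had absolute log2 differences of at most 0.13 in the mean, with adjusted p from 0.811 to 0.994 in edgeR. For Tgfa that mean includes the 2 low libraries, and for Epgn it averages opposite directions. Epgn means in AhRf/f and Sftpc-Cre;AhRf/f cells were 1.21 and 0.89 CPM with PBS and 1.34 and 2.03 CPM with CRE, with overlapping groups.

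Whether the CRE response differs between the genotypes was tested by the interaction. Areg had an interaction of 0.0015 on the log2 scale (SE 0.30, edgeR 95% interval -0.67 to 0.67), and in the paired fit the interval was -0.25 to 0.25. For Adam17 it was -0.14 (SE 0.11), and for Epgn 1.04 (SE 0.66, adjusted p = 1.00 in edgeR and 0.522 in the paired fit). For Tgfa, with its 2 low libraries, it was 0.88 (SE 1.26) and in the paired fit 1.99 (SE 1.40). By edgeR 0 of 10 members were called, as were 0% of all genes in this fit and 0% in the paired fit. An unadjusted p below 0.05 was found for 0 members in edgeR, beside 3.7% of all genes, and for 1, Epgn, in the paired fit, beside 9.09%. DESeq2 called 0 members and 0.112% of all genes. The second rule called 0 members and 2.3% of all genes.

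**Figure D4:**
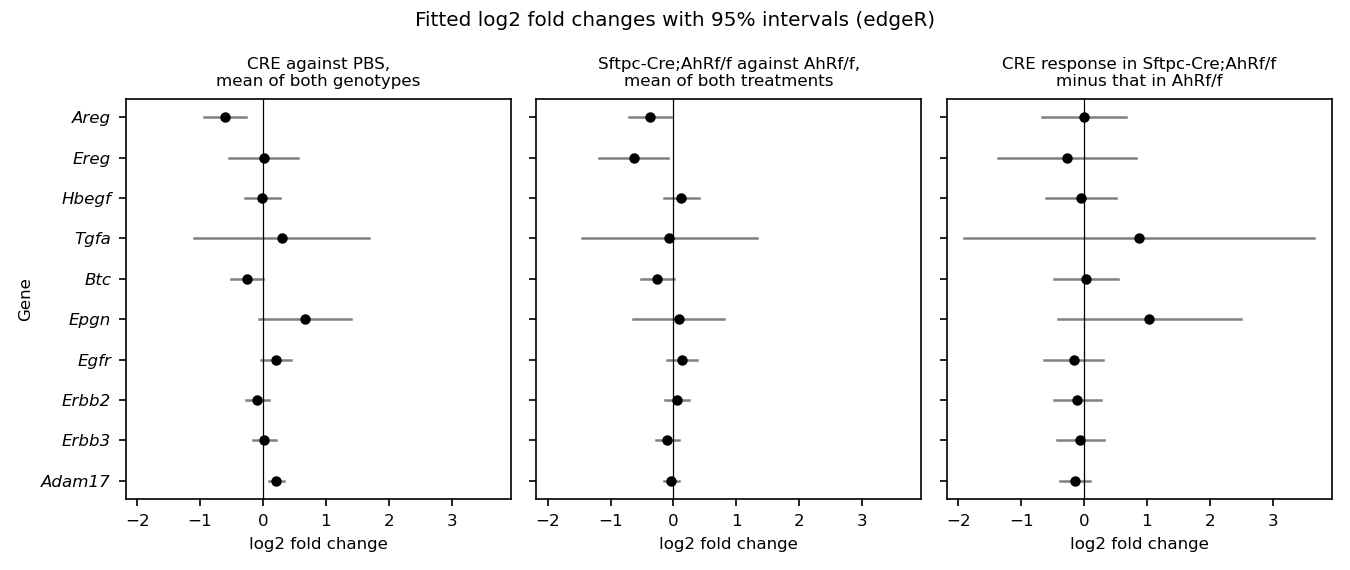
Log2 fold changes of the 10 genes with their 95% intervals in edgeR: CRE against PBS, Sftpc-Cre;AhRf/f against AhRf/f, and the difference of the CRE response between genotypes. Areg is at -0.60, -0.38 and 0.00 in the 3 panels, and Tgfa and Epgn have the widest intervals.

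The rest of the pathway was followed by 5 gene lists. Of 6 other ErbB ligands and receptors, 4 were tested and 0 were called in any comparison by edgeR, the paired fit, DESeq2 or the second rule. These called at most 1.1%, 6.59%, 3.6% and 4.11% of all genes in a comparison, so 0 of 4 says little about this list. An unadjusted p below 0.05 in edgeR was found for 1 of them in the genotype mean, beside 9.93% of all genes. In the other comparisons it was found for 0 of them, beside 3.7% to 11.1% of all genes. Nrg1, the neuregulin that binds ERBB3 and ERBB4, was the most abundant at 4.27 to 7.38 FPKM. Nrg3 had 0 counts in all libraries, and Erbb4 had 8 counts in 1 library, 1 count in another and 0 in the rest. Egf itself had 12 to 61 counts, and it and Erbb4 were named after their values were seen.

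Of the 7 genes of ligand shedding, 0 were called by edgeR in the CRE mean, with 1 at an unadjusted p below 0.05, and 1 in the paired fit and by DESeq2. In that comparison edgeR called 1.1%, the paired fit 6.59% and DESeq2 3.6% of all genes, and 11.1% had an unadjusted p below 0.05 in edgeR, so the counts of this and the next lists stand against these shares. The gene called was Timp3, the inhibitor of ADAM17 and the most abundant of the list (30.2 to 62.6 FPKM), which fell by 0.29 on the log2 scale (SE 0.04, paired adjusted p = 0.0054 in edgeR). Adam15 was the least abundant at 4.49 to 6.26 FPKM. Of the 12 feedback inhibitors 9 were lower in the CRE mean, 0 were called by edgeR (1 at an unadjusted p below 0.05), 0 by DESeq2 and 2 in the paired fit, against the same shares of all genes. Errfi1 (MIG6), which binds and blocks the EGFR kinase and was the most abundant at 76.9 to 109 FPKM, fell by 0.16 (SE 0.03, paired adjusted p = 0.015 in edgeR). Spry4, a Sprouty inhibitor of RAS and ERK signalling, fell by 0.39 (SE 0.09, paired adjusted p = 0.0413 in edgeR). Lrig3 was the least abundant at 0.458 to 0.689 FPKM. The interaction was below 0 in 11 of these 12 genes, with an edgeR median of -0.13 against 0.0052 over all genes. The share of all genes below 0 was not counted. Of the 12, 0 were called by edgeR and 0 by DESeq2, beside 0% and 0.112% of all genes. An unadjusted p below 0.05 was found for 0 in edgeR and 3 in the paired fit, beside 3.7% and 9.09% of all genes. The 12 include Spry1, at 15 counts in library 1 of the AhRf/f cells with PBS, and the direction of its AhRf/f response rests on that library.

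Of the 13 signal transducers, edgeR called 0 in the CRE mean, with 5 at an unadjusted p below 0.05 (11.1% of all genes), and the paired fit called 2 (6.59% of all genes). The adaptor Shc1 rose by 0.17 (SE 0.04, paired adjusted p = 0.0383 in edgeR) and the GTPase Hras fell by 0.19 (SE 0.03, paired adjusted p = 0.0114 in edgeR). In AhRf/f cells alone the paired fit called Hras lower and the RAS exchange factor Sos1 higher, the latter with a log2 fold change of 0.31 (SE 0.06). Between the genotypes, edgeR called 0 genes of these first 4 lists in the mean of both treatments, where it called 0.631% of all genes, with 1, 2, 1 and 3 at an unadjusted p below 0.05, as had 9.93% of all genes. DESeq2, which called 2.54% of all genes, called 1 of them, Timp3, at a log2 difference of 0.35 (adjusted p = 0.0058) with the higher level in Sftpc-Cre;AhRf/f cells. Mapk3, the gene of ERK1, was the most abundant at 72.3 to 102 FPKM and Sos1 the least at 3.51 to 4.79 FPKM.

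The 14 ERK response genes had no common direction with CRE: 7 were higher and 7 lower in the mean, with a median log2 fold change of 0.0025 against -0.0021 over all genes. In edgeR 6 of them had an unadjusted p below 0.05, as had 11.1% of all genes. The edgeR test called 2 higher and 1 lower, beside 1.1% of all genes, and the paired fit called 4 higher and 2 lower, beside 6.59%. Ier3, an immediate early gene whose product is a substrate of ERK, was at 157, 149 and 175 CPM with PBS and at 224, 227 and 276 CPM with CRE in AhRf/f cells. The Sftpc-Cre;AhRf/f values were 128, 100.0 and 97.9 CPM with PBS and 190.2, 171 and 157 CPM with CRE. The CRE libraries lay above the PBS libraries in both genotypes, without overlap. Ier3 rose by 0.63 in the mean (SE 0.09, adjusted p = 0.0071 in edgeR), and it was called under all 22 alternatives. It was also lower in Sftpc-Cre;AhRf/f cells, by 0.53 on the log2 scale (SE 0.09, adjusted p = 0.0276 in edgeR). That call was lost on log2(FPKM + 1) (adjusted p = 0.0508 in limma) and on leaving out any 1 library other than library 1 of the AhRf/f cells with CRE and of the Sftpc-Cre;AhRf/f cells with PBS or CRE, with adjusted p up to 0.085 in edgeR. Over all alternatives the value stayed between -0.67 and -0.47.

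Plaur, the urokinase receptor, was at 240.1 to 256 CPM with PBS and 299.9 to 325 CPM with CRE in AhRf/f cells and at 215 to 222 CPM and 268 to 317 CPM in Sftpc-Cre;AhRf/f cells. It rose by 0.35 in the mean (SE 0.05, adjusted p = 0.0088 in edgeR), and the groups did not overlap. Etv5, an ETS factor of AT2 cells induced by ERK, was at 21.8 to 23.0 CPM with PBS and 14.8 to 17.7 CPM with CRE in AhRf/f cells. Its values in Sftpc-Cre;AhRf/f cells were 21.5 to 25.5 CPM with PBS and 15.6 to 19.1 CPM with CRE, again without overlap. It fell by 0.47 in the mean (SE 0.08, adjusted p = 0.0185 in edgeR). Without the libraries numbered 1, which hold the most leukocyte markers, the adjusted p in edgeR was 0.0629 for Etv5 and 0.0772 for Plaur, at log2 fold changes of -0.45 and 0.37. Leaving out 1 library ended the call of Etv5 when it was library 2 or 3 of either PBS group or library 2 of the AhRf/f cells with CRE, with adjusted p from 0.0516 to 0.0618 in edgeR.

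The paired fit added Fosl1 (0.26, SE 0.03), a subunit of AP-1, and Ccnd1 (0.24, SE 0.04), the gene of cyclin D1, among the higher genes. It added the ERK phosphatase Dusp6 (-0.32, SE 0.04) among the lower genes, with paired adjusted p of 0.0065, 0.0107 and 0.0048 in edgeR. The immediate early genes Egr1, Fos and Myc were higher in some pairs and lower in others. Etv4, the least abundant of the list at 0.754 to 1.84 FPKM, was called by the second rule as higher in Sftpc-Cre;AhRf/f cells with PBS, with CRE and in the mean. It was at 2.63 to 4.27 CPM in AhRf/f cells and 4.66 to 6.21 CPM in Sftpc-Cre;AhRf/f cells, without overlap, with a log2 difference of 0.65 (SE 0.15, adjusted p = 0.106 in limma-trend). It was not called by edgeR (adjusted p = 0.137) and was called by DESeq2 (adjusted p = 0.0039). In the genotype mean of both treatments 6 of the 14 genes were higher and 8 lower in Sftpc-Cre;AhRf/f cells. There edgeR called 1, Ier3, beside 0.631% of all genes, and 8 had an unadjusted p below 0.05, as had 9.93%. DESeq2 called Etv4 and Ier3, beside 2.54% of all genes.

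**Figure D5:**
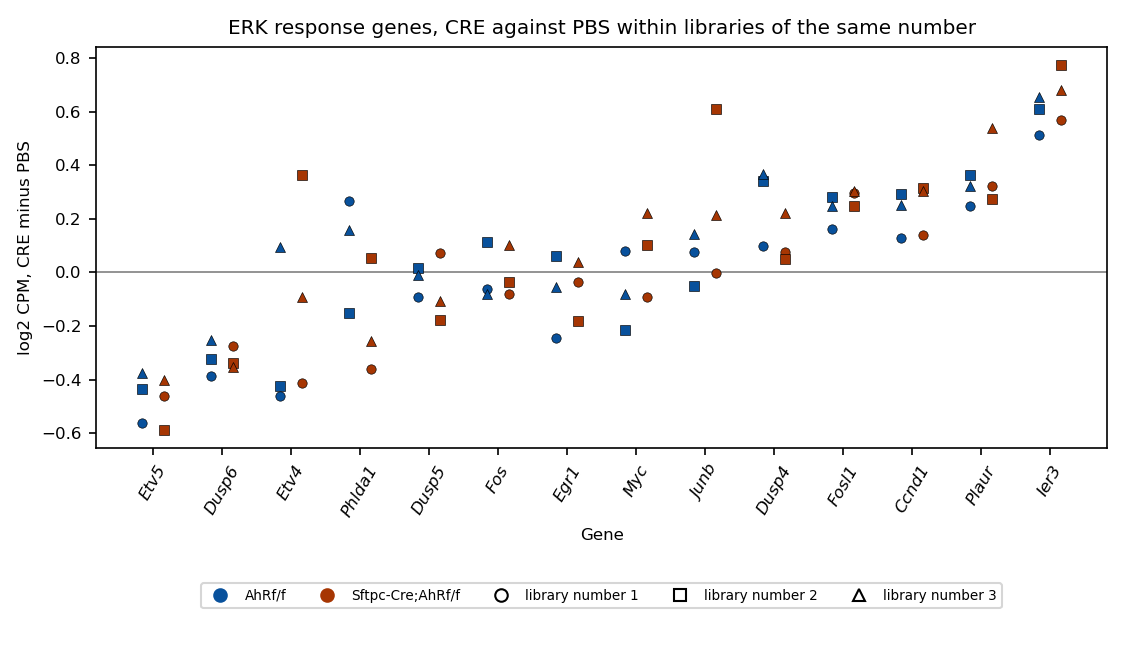
Difference in log2 CPM between CRE and PBS libraries of the same number for the 14 ERK response genes, ordered by median; colours are genotypes and shapes library numbers. Etv5 and Dusp6 lie below 0 in 6 of 6 pairs, and Ier3, Plaur, Ccnd1, Fosl1 and Dusp4 above it.

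The genes whose log2 CPM followed Areg most closely over the 12 libraries were Tmem62 (r = 0.91), Hist1h1c (0.90), Tbc1d10a (0.90), Catspere2 (0.90) and Ccdc154 (0.89), and after removal of the group means r was 0.74 to 0.84. Those closest to Egfr were Smurf2 (r = 0.92), Phf6 (0.91), Slco2b1 (0.90), Npn2 (0.89) and Osmr (0.89), with r of 0.89 to 0.94 after removal of the group means. These were the highest values among 20612 genes, and the libraries share treatments and library numbers. Several members overlap other genes on the opposite strand, and strand use in counting is not given in the sources used here. Mien1 (4377 to 5684 counts) overlaps the end of Erbb2 and Iah1 (1214 to 1696 counts) that of Adam17, whereas the antisense partners of Ereg and Egfr had at most 45 and 12 counts. The stretch shared with Mien1 is only 98437708 to 98437716 on chromosome 11. That shared with Iah1 is 21323509 to 21323819 on chromosome 12.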

How the data were processed

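RNA was measured by stranded mRNA sequencing in 12 libraries. Per the study's methods, reads were aligned with STAR 2.7.2b to GRCm38 and annotated in Partek with RefSeq, and the authors took gene counts by Salmon. The deposited counts are raw and whole, and how they became whole is not given in the sources used here. The authors' deposited FPKM is 1 value per gene, so isoforms cannot be told apart. Over the 12564 genes with at least 100 counts in every library, FPKM per count varied within a gene by at most 1.04-fold after library scaling, and at lower counts it can vary more. FPKM holds 0.0001 where a count is 0. All 55450 gene IDs were found in GENCODE M21, which gave symbols and positions.

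Groups came from the sample labels. Counts were scaled by TMM and filtered with filterByExpr (minimum count 10), and 4 group means were fitted to all 12 libraries in edgeR 4.0.16 (R 4.3.3) and tested by quasi-likelihood, calling genes at a Benjamini-Hochberg adjusted p below 0.05. The rule after the study's methods used limma 3.58.1 on log2 CPM (prior count 2). Pairing was checked by correlating deviations from group means over 14330 genes. Between PBS and CRE, libraries of the same number had r of 0.73, 0.40 and 0.66 in AhRf/f and 0.58, 0.53 and 0.30 in Sftpc-Cre;AhRf/f cells, so they were also fitted with a replicate block within genotype. The step that makes calls was tested on simulated data. Named genes are the 10 members, the pathway genes called by edgeR or the second rule, the highest and lowest of each list in FPKM, and the 5 genes most like Areg and Egfr; genes called only by the paired fit or DESeq2 were named after their values were seen. Members and lists were chosen with earlier results of these data known. Alternatives were DESeq2 1.42.0, its size factors, limma-trend with adjustment, no filter, 1 CPM in 3 libraries, log2(FPKM + 1), only the libraries compared, replicate blocks, a prior count of 0.5 and leaving out each library. Leaving out both libraries low in Tgfa, or all numbered 1, was chosen after seeing the data.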

Additional observations from a re-analysis of the deposited data

How the results depend on the processing

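No member was called by edgeR with all 12 libraries and no block. With a replicate block within genotype, 1 member was called in AhRf/f cells, 1 in Sftpc-Cre;AhRf/f cells and 2 in the CRE mean, and with a replicate block shared by the genotypes 1 in the CRE mean. DESeq2 called 2 there. The block changed no other call of a member. Between genotypes, libraries of the same number did not all deviate together (r from -0.03 to 0.42, with 0.41 and 0.42 for those numbered 1), so that pairing was not used, and 0 members were called between genotypes with the block. The number of genes called by edgeR and its alternatives ran from 19 to 748, 13 to 439 and 125 to 1358 for CRE in AhRf/f cells, in Sftpc-Cre;AhRf/f cells and in the mean, with the most under the block within genotype; 19 and 125 came without library 3 of the AhRf/f cells with PBS. For the genotype it ran from 15 to 243 with PBS, 19 to 174 with CRE and 64 to 522 in the mean, and for the interaction from 0 to 23, with the most in DESeq2. Of the members' log2 values under alternatives other than leaving out 1 library, 670 kept direction and side of the threshold, 7 passed it and 33 changed sign; the cause was not tested.

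The interaction of Areg, 0.0015 in edgeR, was -0.00025 in limma-trend, -1.18e-05 with DESeq2's size factors, -0.0103 at 1 CPM in 3 libraries, -0.024 on log2(FPKM + 1), -5.3e-05 in DESeq2, -0.00034 with the block within genotype and -0.0596 without both libraries low in Tgfa. Without these 2 libraries, Ereg was at -0.17, 0.0887 and -0.0417 for CRE in AhRf/f cells, in Sftpc-Cre;AhRf/f cells and in the mean and at 0.26 for the interaction. Tgfa was then at 0.41 for CRE in AhRf/f cells, 0.0043 and -0.18 for the genotype with PBS and CRE and -0.18 for the interaction. The interaction of Btc was -0.11, and Erbb2 was at 0.10 for CRE in AhRf/f cells and at -0.13 and -0.011 for the genotype with CRE and in the mean. Without the libraries numbered 1, Hbegf was at 0.00048 for CRE in the mean, Adam17 at 0.027 for the genotype in the mean and Btc at -0.14 for the interaction. Tgfa was at 0.36 for CRE in AhRf/f cells, -0.12 for the genotype with CRE and -0.0755 for the interaction, and Erbb2 at 0.014, -0.15 and -0.0647 for CRE in AhRf/f cells and the genotype with CRE and in the mean. For the genotype in the mean, Tgfa was at 0.0873 in limma-trend and 0.0395 on log2(FPKM + 1), and Epgn at -0.0645 in limma-trend and -0.0525 with the replicate block. Erbb2 for the genotype with CRE was at -0.000268 at 1 CPM in 3 libraries.

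On leaving out 1 library, no member was called and 67 of the log2 values changed sign, in these ranges. Areg ran from -0.16 to 0.18 for the interaction. Btc ran from -0.11 to 0.14 for the interaction. Egfr ran from -0.031 to 0.10 for the genotype with CRE. Epgn ran from -0.016 to 0.89 for the genotype with CRE, -0.23 to 0.24 for the genotype in the mean. Erbb2 ran from -0.14 to 0.10 for CRE in AhRf/f cells, -0.13 to 0.11 for the genotype with CRE, -0.0092 to 0.11 for the genotype in the mean. Erbb3 ran from -0.091 to 0.14 for CRE in AhRf/f cells, -0.084 to 0.035 for CRE in Sftpc-Cre;AhRf/f cells, -0.049 to 0.068 for CRE in the mean, -0.22 to 0.018 for the genotype with CRE, -0.12 to 0.0077 for the genotype with PBS, -0.15 to 0.083 for the interaction. Ereg ran from -0.17 to 0.53 for CRE in AhRf/f cells, -0.27 to 0.088 for CRE in Sftpc-Cre;AhRf/f cells, -0.15 to 0.20 for CRE in the mean, -0.66 to 0.044 for the interaction. Hbegf ran from -0.051 to 0.065 for CRE in AhRf/f cells, -0.29 to 0.11 for CRE in Sftpc-Cre;AhRf/f cells, -0.14 to 0.061 for CRE in the mean, -0.15 to 0.24 for the genotype with CRE, -0.30 to 0.10 for the interaction. Tgfa ran from -0.52 to 0.41 for CRE in AhRf/f cells, -0.18 to 0.76 for the genotype with CRE, -0.87 to 0.0033 for the genotype with PBS, -0.34 to 0.19 for the genotype in the mean.

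The fewest counts of a member in a library were 35, of Epgn, whose intervals were the widest after those of Tgfa. Whole-gene counts cannot show isoforms, and a value near 0 has no stable sign. With 3 libraries a group, the 95% intervals of the unpaired fit allow a CRE response of Areg that differs between genotypes by up to 0.67 on the log2 scale.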
